A study of Mus musculus with 46 samples.

Results

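The enzymes that modify the wobble uridine of tRNAs (U34 enzymes) were followed through ribosome footprints and RNA of control and Ctu1 knockout murine pancreatic cancer cells, with and without torin 1. The genes were taken by symbol: Ctu1, Ctu2, Urm1, Elp2, Elp3, Elp4, Elp5, Elp6 and Kti12. All 9 were among the 10397 genes listed in the count tables of DMSO-treated cells. The tables of torin 1-treated cells listed 9913 genes and held 8 of the 9, without Ctu1. A gene entered either table only where at least 1 footprint library held 100 or more counts of it, so that genes with few footprints were not listed.

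EPP2, a line of mouse pancreatic tumour cells, was used throughout. The study describes a clone of it, grown from 1 cell, in which doxycycline switches on Cas9 (iCas9). Ctu1 inducible knockout (iKO) cells had received a pair of guide RNAs against Ctu1 and 300 ng/ml doxycycline for 4 days. The labels carry the same statement on doxycycline for every library, controls included. The study's methods name guides against non-coding regions or the absence of doxycycline as controls, and which of these the control libraries were is not given in the sources used here. Cells of either genotype had 2 h of DMSO, the solvent, or of 300 nM torin 1, an inhibitor of the mTOR kinase. Footprints, the mRNA pieces that translating ribosomes shield from nuclease, and RNA from the same lysates were each sequenced in 6 control DMSO, 5 Ctu1 iKO DMSO, 6 control torin 1 and 6 Ctu1 iKO torin 1 samples, 46 libraries in all.

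The uridine at the wobble position of certain tRNA anticodons carries a side chain that is built in steps. The Elongator complex, with Elp3 as its catalytic subunit, Elp2 as a scaffold beside it and Elp4, Elp5 and Elp6 as a ring-shaped subcomplex, starts the carboxymethyl group, and Kti12 is an ATPase that accompanies Elongator. Ctu1 and Ctu2 form the cytosolic thiouridylase, which exchanges an oxygen of the same base for sulfur delivered by the ubiquitin-like carrier Urm1. The finished tRNAs read AAA, CAA and GAA codons (together VAA), which encode lysine, glutamine and glutamate.

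The guide sequences are shown because they decide which part of Ctu1 can be missing from the counts. Ctu1 lies on the plus strand of chr7:43672016-43678298 (mouse build GRCm38) and has 3 exons. The study's guide list holds these guide pairs, printed 5′ to 3′ with the genomic PAM next to the guide in capitals.
Ctu1_dsgRNA1, guide 1: gcacgtgtgccagcactgTGG
Ctu1_dsgRNA1, guide 2: gtaggccacgatggtgagCGG
Ctu1_dsgRNA2, guide 1: gtggagtccttgccaccagAGG
Ctu1_dsgRNA2, guide 2: gtggcctacgaagatctcttCGG
Each guide matched the coding part of exon 2 over its whole length. In the dsgRNA1 pair, guide 1 lay at chr7:43675332-43675349 and guide 2 at chr7:43675475-43675492, both on the minus strand. Their cuts, taken 3 bases from the PAM, fell in codons 66 and 113. In the dsgRNA2 pair, guide 1 lay at chr7:43675314-43675332 on the minus strand and guide 2 at chr7:43675484-43675503 on the plus strand, with cuts in codons 60 and 121. The sources used here do not say which pair the sequenced cells carried.

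**Figure D1:**
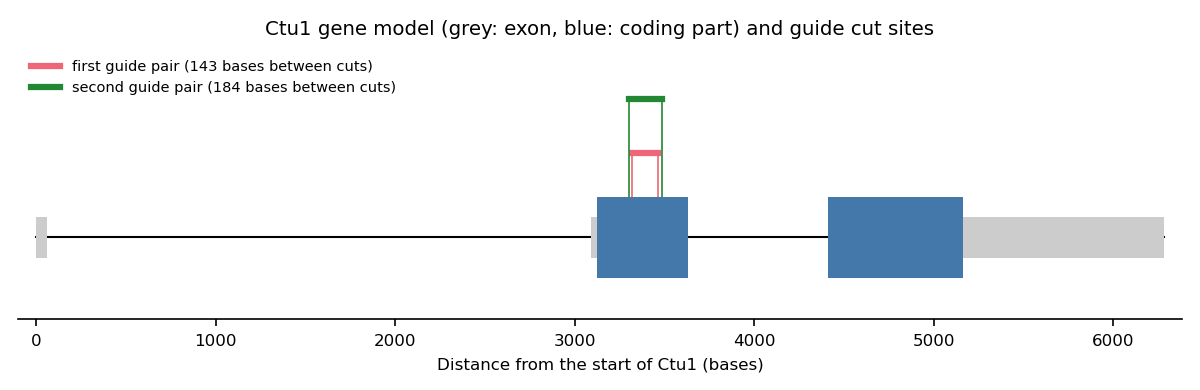
Map of the Ctu1 gene to scale, in bases from the start of the gene (x axis), with its 3 exons in grey, the coding part in blue and the cut sites of each guide pair joined by a bar. All 4 cuts fall in exon 2, and the bases between the cuts of a pair are a small part of the transcript.

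A deletion between the cuts removes 143 bases with dsgRNA1 and 184 with dsgRNA2. That is 5.78% or 7.43% of the 2475-base transcript and 11.3% or 14.6% of the 1260-base coding sequence, in either case a length that is not a multiple of 3. The rest of the transcript stays countable, so the Ctu1 RNA counts do not test whether the knockout was made. Ctu1 footprints were still counted in every Ctu1 iKO library with DMSO, and the editing itself was not measured here.

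Total counts were between 4602092 and 52907878 in footprint libraries and between 129881946 and 325494304 in RNA libraries. Libraries were set against the treatment and genotype differences seen in replicates 1 and 2. On this scale 2 of 4 footprint libraries of replicate 3 and 9 of 11 of replicates 4 to 6 lay on both labelled sides, and 4 of 4 and 5 of 11 RNA libraries did. The footprint libraries on the wrong side were Ctu1 iKO DMSO replicates 3, 4 and 5 by genotype, with scores of -0.14, -0.306 and -0.218 where Ctu1 iKO was positive, and control torin 1 replicate 3 by treatment, with -0.0547. Of the same-numbered pairs in replicates 4 to 6, footprints stood in the order of their labels in 5 of 5 pairs by treatment and 5 of 5 by genotype, whereas RNA did so in only 3 of 5 and 3 of 5. The RNA results below therefore use replicates 1 to 3, and values with all RNA replicates are given where they change a call of an enzyme. Markers of ductal and carcinoma cells were listed for 5 of 7 genes (Krt8, Krt18, Krt19, Epcam and Sox9), with a summed level of 308 to 501 CPM (counts per 1000000 counts of the library) in footprint libraries. Of 5 mesenchymal markers 4 were listed and summed to 1910 to 5230 CPM. No endothelial, acinar or islet marker was listed, and of the blood markers only Cd68, at 0 to 6.2 CPM. Torin 1 lowered footprints of 71 of 73 cytosolic ribosomal protein genes in control cells and 72 of 73 in Ctu1 iKO cells, with a median change of -0.97 and -1.59 (log2). All levels are relative to the other genes of a library, so a fall shared by every gene cannot be seen. In these bulk samples, fewer cells of a kind and less RNA per cell cannot be told apart.

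The labels number the replicates but do not say that each was a separate culture, and the study describes them in different ways. Its methods give fewer independent replicates, made on consecutive days, than the libraries analysed here, whereas its figure legends call the footprint replicates independent experiments. For RNA, its legend gives fewer independent experiments than the RNA replicates used here. In every group the libraries were most alike in neighbouring numbers, replicate 1 with 2, 3 with 4 and 5 with 6, and in Ctu1 iKO DMSO cells 1 with 2 and 4 with 5. The p-values treat the libraries as independent and measure only the spread between them, and they are too small if such neighbours share a culture. Whether they do was not tested. RNA replicates 1 to 3 hold 1 such pair and 1 further library. A fit that counted each set of neighbours as 1 sample is given beside the results of the enzymes and other named genes. In Ctu1 iKO DMSO cells this fit summed replicates 1 to 3, and replicates 4 and 5. RNA was thereby left with 1 Ctu1 iKO DMSO sample, so for RNA comparisons with that group no p-value of this fit is given.

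U34 enzymes were translated at very different levels. In control DMSO cells, footprints per kb of coding sequence were highest for Elp5 at 69.8 ± 11.5 CPM per kb (SD, n = 6) and lowest for Ctu1 at 2.12 ± 0.589. Between them came Elp2 at 52.3 ± 10.4, Elp3 at 39.2 ± 4.75, Ctu2 at 31.5 ± 6.12, Urm1 at 31.2 ± 3.87, Elp6 at 22.4 ± 4.63, Kti12 at 21.6 ± 2.44 and Elp4 at 13.5 ± 2.35 CPM per kb. Most neighbours in this order overlapped between libraries. Only Urm1 and Elp6, Kti12 and Elp4, and Elp4 and Ctu1 did not overlap, and with the shortest coding isoforms Urm1 and Elp6 overlapped as well. Thus the subunits of the Elp4, Elp5 and Elp6 subcomplex covered nearly the whole range of levels, and Ctu1 stood far below its partner Ctu2. Of all 10103 genes with a length, 8.24% had fewer footprints per kb than Ctu1 and 80.2% fewer than Elp5.

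RNA per kb of transcript, in control DMSO replicates 1 to 3, had the same ends. Elp5 stood at 53.3 ± 4.47 CPM per kb (n = 3), Elp3 at 41.5 ± 1.74, Elp2 at 34.4 ± 2.30, Kti12 at 24.2 ± 0.721, Ctu2 at 15.3 ± 1.34, Elp6 at 12.8 ± 0.181, Urm1 at 10.2 ± 0.369, Elp4 at 3.51 ± 0.152 and Ctu1 at 1.83 ± 0.0338 CPM per kb. No neighbours in the RNA order overlapped. The RNA levels with torin 1 kept Elp5 and Elp3 at the top and Elp4 at the bottom of the 8 genes listed there. In Ctu1 iKO torin 1 cells, Kti12 RNA at 15.9 ± 0.773 CPM per kb stood below the mean of Ctu2 at 17.1 ± 0.898 CPM per kb, although the values of both genes overlapped.

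**Figure D2:**
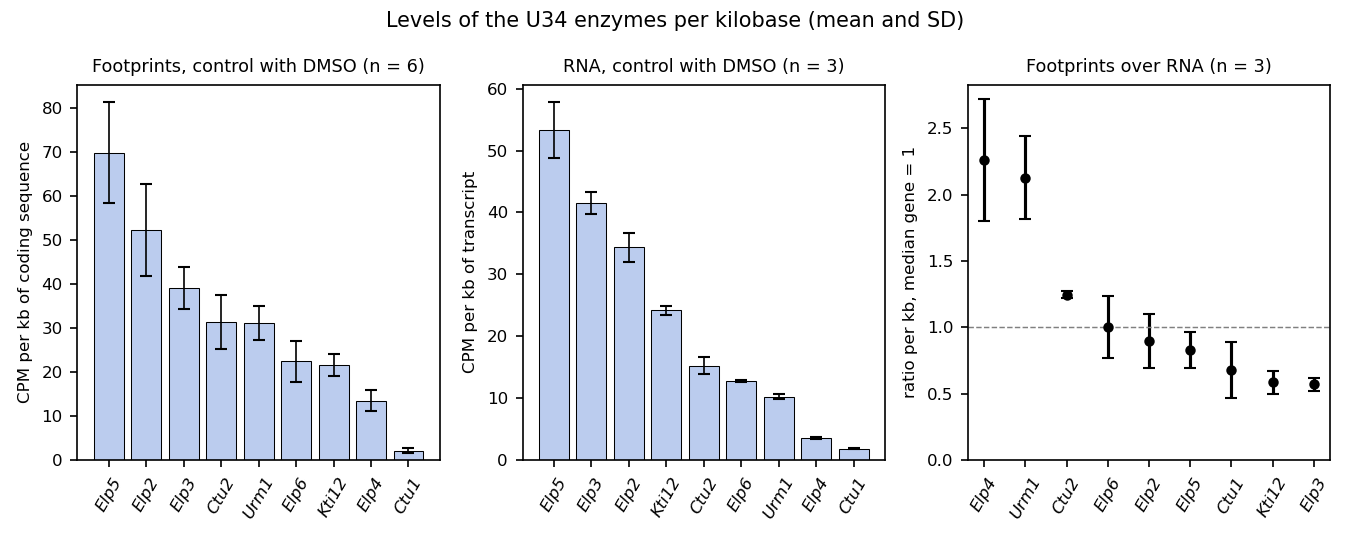
Footprints per kb of coding sequence (n = 6) and RNA per kb of transcript (n = 3) of the 9 U34 enzymes in control DMSO cells, as bars of the mean in CPM per kb with SD, and beside them the ratio of both per kb (n = 3, mean and SD, median gene at 1). Elp5 is highest and Ctu1 lowest in both assays, and Elp4 and Urm1 have ratios of 2.26 and 2.13.

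Footprints per coding kb over RNA per transcript kb were compared with the median gene, whose ratio was set to 1. Elp4 at 2.26 ± 0.458 (n = 3 libraries) and Urm1 at 2.13 ± 0.312 had the highest ratios of the U34 enzymes, above 85.0% and 83.6% of 9868 genes. Elp3 at 0.569 ± 0.0507 and Kti12 at 0.586 ± 0.088 had the lowest, above 21.5% and 22.3% of genes. Ctu2, Elp6, Elp2, Elp5 and Ctu1 lay between 1.25 and 0.679. These ratios rest on 1 transcript model for each gene.

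Since the finished tRNAs read VAA codons, the codons of the U34 enzymes themselves were counted. Ctu1 has 5 VAA codons among 420, or 1.19%, and only 1.25% of 10159 listed genes had a lower share. Kti12 at 2.56%, Ctu2 at 2.72% and Elp6 at 3.38% were also below the lower quartile of all genes, 3.97%. Elp3, Elp2, Urm1 and Elp4 had 4.57%, 4.93%, 5.94% and 6.87%, and Elp5 had the highest share at 8.0%. The median was 4.57% over the 9 U34 enzymes and 6.06% over all genes, and 7 of the 9 enzymes were below the latter.

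Whether Ctu1 iKO cells express the U34 enzymes differently was asked in DMSO. None of the 9 enzymes was called in RNA, and none of the 8 besides Ctu1 was called in footprints or translational efficiency. Differences in footprints of these 8 were between -0.03 and 0.23 on the log2 scale. With Ctu1, at -0.54, the median was 0.00 over the 9 enzymes and 0.00 over all genes. A change was called at an adjusted p under 0.05 in edgeR's quasi-likelihood test, and the adjustment ran over all genes tested. At this threshold 2.66% of genes were called in footprints, 5.12% in RNA and 0.0% in translational efficiency, the footprint change beyond the RNA change. None of these enzymes passed an unadjusted p of 0.05 in these tests, and DESeq2 called none.

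Ctu1, the catalytic subunit of the thiouridylase, had few reads. Its footprint counts were 42 to 143 in control and 16 to 60 in Ctu1 iKO libraries, so Ctu1 entered the table only through control replicate 5, which had the 143. A listing through 1 control library can favour higher values in control cells, and the footprint difference is therefore given as a description, with no test. Its footprint level was 1.65 CPM in the lowest, 2.63 in the median and 3.78 in the highest of 6 control libraries. The Ctu1 iKO replicates 1 to 5 stood at 1.504, 1.345, 2.336, 1.753 and 2.157 CPM. The groups overlapped, and 2 of the 5 Ctu1 iKO libraries, replicates 1 and 2, were below every control library. By replicate number, 5 of 5 Ctu1 iKO libraries were below the control library of their number, but the numbers do not pair this comparison. The means were 2.67 ± 0.742 and 1.82 ± 0.421 CPM, with a fitted log2 difference of -0.54 ± 0.29 (SE). Replicates 1 and 2 had a lower mean of Ctu1 footprints than the later replicates, with a log2 difference of -0.53 in control and -0.54 in Ctu1 iKO cells.

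Ctu1 RNA was 4.61, 4.45 and 4.56 CPM in control and 4.43, 4.30 and 4.91 CPM in Ctu1 iKO replicates 1 to 3. The groups overlapped and their means were alike, at 4.54 ± 0.0837 and 4.55 ± 0.319 CPM. The exact permutation test gave p = 1.0, and this design of 3 against 3 cannot go below 0.1. The log2 difference of 0.02 had a 95% interval from -0.23 to 0.28. In RNA replicates 4 to 6, of which 5 of 11 libraries lay on both labelled sides, Ctu1 iKO replicates 4 and 5 had 3.41 and 3.21 CPM, and control replicates 4 to 6 had 5.30, 4.17 and 4.48.

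Ctu2, the partner of Ctu1, did not differ in footprints. The lowest, median and highest control libraries had 41.0, 45.8 and 66.3 CPM, and Ctu1 iKO replicates 1 to 5 had 40.4, 49.3, 54.5, 46.0 and 51.4 CPM. The log2 difference was 0.00 with a 95% interval from -0.28 to 0.28. Ctu2 RNA was 44.6, 44.1 and 51.5 CPM in control and 50.7, 50.3 and 55.1 CPM in Ctu1 iKO replicates 1 to 3. Each Ctu1 iKO library was above the control library of its number, while the groups overlapped. The log2 difference of 0.17 ± 0.08 had an adjusted p of 0.249. With the replicate number as a block it was 0.18 with an adjusted p of 0.0397, and Ctu2 was then the only enzyme of 9 called, where 28.0% of all genes were called. With all RNA replicates Ctu2 was not called. Summing neighbouring libraries leaves 1 Ctu1 iKO sample and cannot decide this call.

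Urm1, the sulfur carrier, had log2 differences of 0.09 ± 0.16 in footprints and 0.14 ± 0.08 in RNA, neither of them called. Its RNA was 22.7, 21.6 and 23.2 CPM in control and 22.9, 25.2 and 25.2 CPM in Ctu1 iKO replicates 1 to 3. The groups overlapped by 1 library. With all RNA replicates, where 5 of 11 of the libraries added lay on both labelled sides, the Urm1 difference was 0.23 with an adjusted p of 0.0257, and 26.4% of all genes were called. It was 0.14 with neighbouring libraries summed, which leaves 1 Ctu1 iKO sample.

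Among the Elongator subunits, Elp3 had the largest footprint difference, from 55.2, 65.7 and 72.3 CPM in the lowest, median and highest control libraries to 58.4, 77.8, 83.6, 82.1 and 73.8 CPM in Ctu1 iKO replicates 1 to 5. Its log2 difference of 0.23 ± 0.12 had a 95% interval from -0.02 to 0.48 and an adjusted p of 0.324. Elp2, Elp4, Elp5 and Elp6 differed by -0.03, 0.08, 0.00 and 0.00 in footprints and by -0.02, 0.09, 0.07 and 0.03 in RNA. Kti12 differed by 0.06 ± 0.12 in footprints and -0.01 ± 0.08 in RNA. The 95% intervals of the enzymes other than Ctu1 lay between -0.41 and 0.48 in footprints, so a change of 1.5-fold or more was outside all of these intervals.

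**Figure D3:**
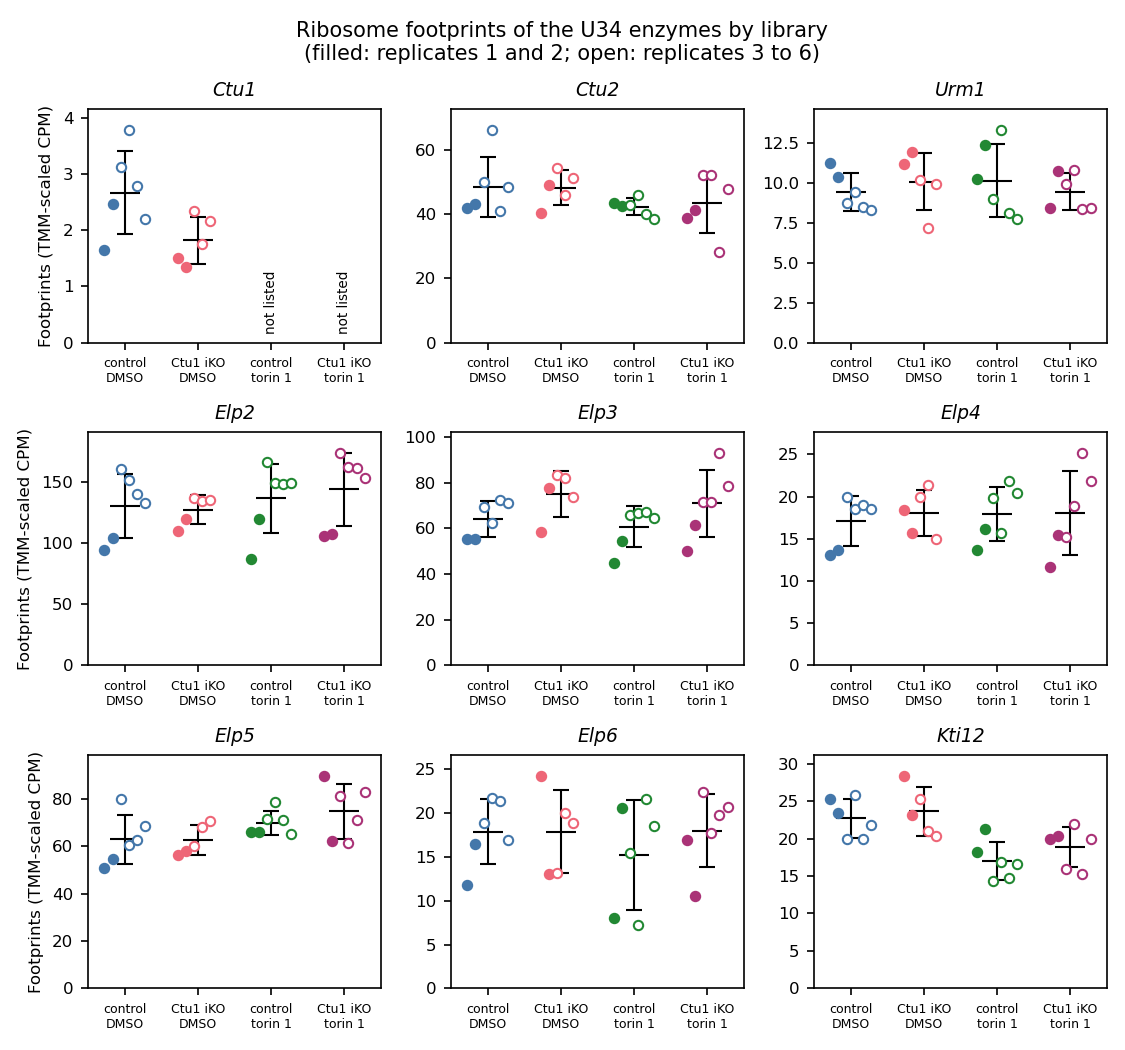
Footprint level of each U34 enzyme in every library, in TMM-scaled CPM, by genotype and treatment, with replicates 1 and 2 filled, replicates 3 to 6 open and lines for the mean and SD of all. The points of control and Ctu1 iKO cells overlap for every enzyme in DMSO, and Kti12 is lower with torin 1 than with DMSO in 6 of 6 same-numbered control pairs.

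With torin 1, none of the 8 enzymes was called between Ctu1 iKO and control cells in footprints, RNA or translational efficiency. The shares of all genes called were 4.83%, 1.31% and 0.114%. Footprint differences of the enzymes were between -0.09 and 0.24 (log2). In RNA, 2 enzymes passed an unadjusted p of 0.05, Ctu2 and Elp3, and in footprints and translational efficiency none did. Ctu2 RNA was 41.8, 44.8 and 45.4 CPM in control and 50.8, 55.7 and 51.0 CPM in Ctu1 iKO replicates 1 to 3, without overlap. The log2 difference of 0.26 ± 0.08 had an adjusted p of 0.139 in edgeR, 0.0295 in DESeq2, which called 11.3% of all genes here, and 0.0112 with the replicate block. Elp3 RNA was 100.7, 115.0 and 121.1 CPM in control and 121.6, 134.2 and 137.3 CPM in Ctu1 iKO cells, also without overlap. Its difference was 0.23 ± 0.10, with an adjusted p of 0.249 and, with the replicate block, 0.0123. Under that block 2 of 8 enzymes and 32.8% of all genes were called, so the enzymes were called about as often as other genes. Neither was called with all RNA replicates, or with neighbouring libraries summed (adjusted p = 0.486 and 0.563). Footprints of Ctu2 and Elp3 differed by 0.04 ± 0.14 and 0.23 ± 0.15. Elp3 was higher in Ctu1 iKO than in control cells in 6 of 6 same-numbered pairs of torin 1 footprints and 3 of 3 of RNA with each treatment. In DMSO footprints, which the numbers do not pair, this held in 5 of 5. Ctu2 and Urm1 RNA was also higher in 3 of 3 pairs with each treatment, but their footprints were not higher in every pair. How many of all genes went 1 way in every pair, or were without overlap, was not counted. In the torin 1 footprints, which the numbers pair, the Elp3 difference with the replicate block was 0.22 ± 0.08 and was not called (adjusted p = 0.0927).

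Torin 1 was compared with DMSO to ask how mTOR inhibition moves the U34 enzymes. Kti12 fell in RNA by 28.0% in control and by 33.6% in Ctu1 iKO cells, and its footprints fell by 25.3% in control cells. The calls in control cells were lost when neighbouring libraries were summed and counted as 1 sample, with fitted changes of much the same size. In Ctu1 iKO RNA summing leaves 1 DMSO sample and cannot decide a call. With single libraries and no replicate block, none of Ctu2, Urm1, Elp2, Elp3, Elp4, Elp5 and Elp6 was called. With the replicate number as a block, which pairs the RNA libraries, Elp6 was also called lower in RNA of both genotypes (adjusted p = 0.037 and 0.0289). The block called 43.7% and 35.1% of all genes. The Elp6 call in control RNA was lost with neighbouring libraries summed, a fit that called only 0.384% of all genes. Thus, without the block, 1 of 8 enzymes was called in control footprints, control RNA and Ctu1 iKO RNA, and none in Ctu1 iKO footprints. Of all genes, 7.24% were called in control footprints and 13.1% in control RNA (4.33% and 7.4% as lower), and 8.0% and 8.25% in Ctu1 iKO footprints and RNA (4.52% as lower in each). A single call among 8 is near these shares.

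Kti12, the ATPase that accompanies Elongator, lies at chr4:108847785-108849413 on the plus strand (GRCm38), and its transcript of 1.63 kb fills this span without an intron. Its RNA in control replicates 1 to 3 was 38.1, 39.5 and 40.4 CPM with DMSO and 28.3, 28.2 and 28.6 CPM with torin 1. Every torin 1 library was below every DMSO library. The log2 change was -0.47 ± 0.06 with a 95% interval from -0.61 to -0.33 and an adjusted p of 0.0039. It was called without any of the 6 libraries in turn, with an adjusted p of 0.0313 at most. With replicates 1 and 2 summed, which leaves 2 samples a group, the change was -0.48 (adjusted p = 0.0791).

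In Ctu1 iKO cells, Kti12 RNA was 37.9, 35.8 and 42.1 CPM with DMSO and 24.8, 25.5 and 27.3 CPM with torin 1. Again the groups did not overlap. The log2 change was -0.59 ± 0.09 with a 95% interval from -0.81 to -0.37 and an adjusted p of 0.0134. The call was lost without Ctu1 iKO DMSO replicate 1 (adjusted p = 0.0671), DMSO replicate 2 (0.0522) or torin 1 replicate 2 (0.0613), while the change stayed between -0.64 and -0.52. With the replicate block the adjusted p was 1.83e-05 in control and 2.61e-04 in Ctu1 iKO cells. With neighbouring libraries summed, which leaves 1 Ctu1 iKO DMSO sample, the change in Ctu1 iKO cells was -0.60. The difference of the RNA change between genotypes was not tested.

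RNA replicates 4 to 6, of which 5 of 11 libraries lay on both labelled sides, gave a smaller Kti12 change. Control replicates 4 to 6 had 41.8, 34.9 and 40.2 CPM with DMSO and 33.0, 34.8 and 39.0 CPM with torin 1. Ctu1 iKO replicates 4 and 5 had 31.1 and 32.7 CPM with DMSO, and Ctu1 iKO torin 1 replicates 4 to 6 had 28.9, 33.4 and 33.1 CPM. Here the treatments overlapped in both genotypes. With all RNA replicates as labelled the log2 change was -0.28 (adjusted p = 0.062) in control and -0.32 (adjusted p = 0.969) in Ctu1 iKO cells, and neither was called.

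**Figure D4:**
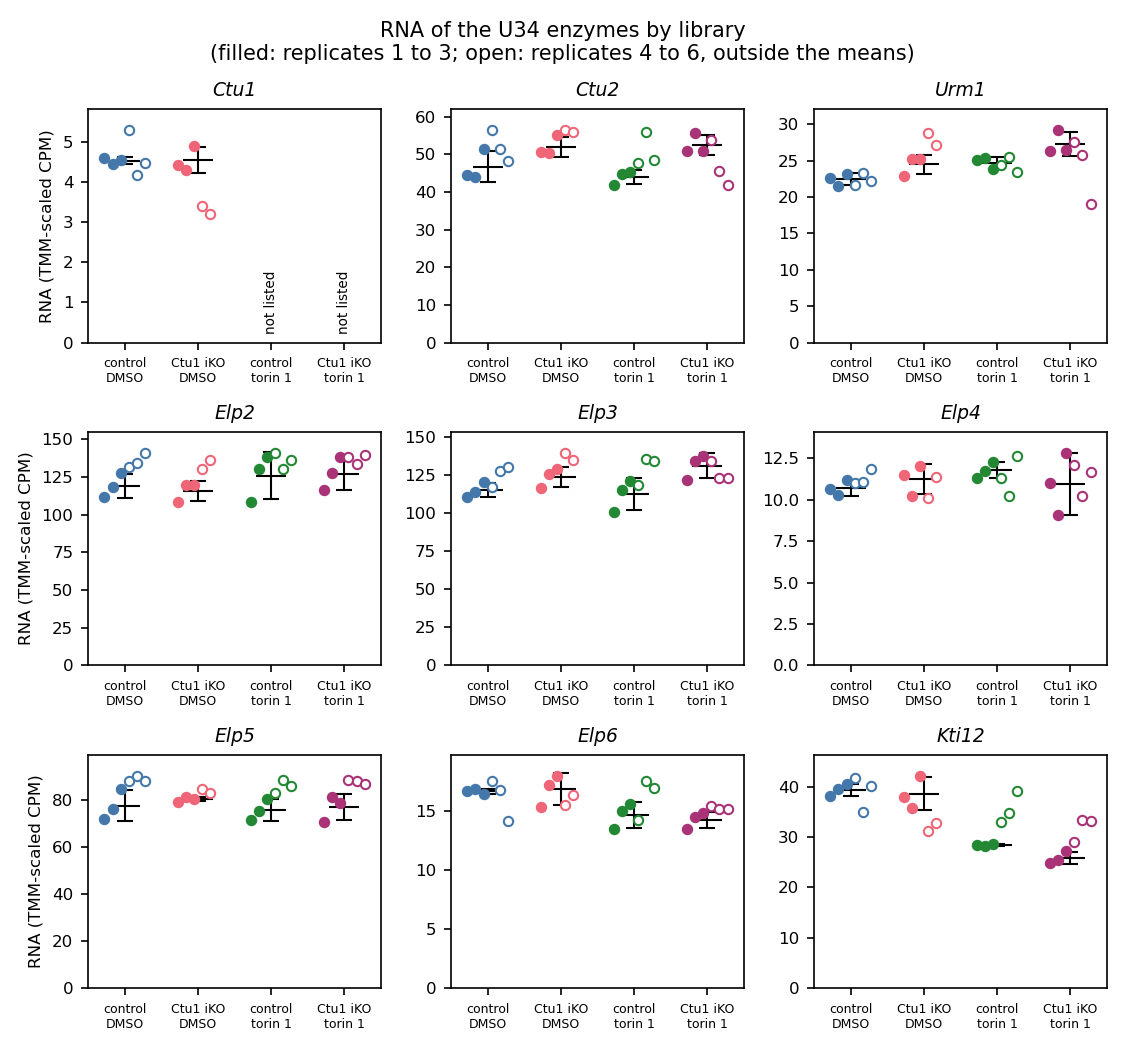
RNA level of each U34 enzyme in replicates 1 to 3 (filled) and 4 to 6 (open), in TMM-scaled CPM, by genotype and treatment, with lines for the mean and SD of replicates 1 to 3. Kti12 replicates 1 to 3 lie between 35.8 and 42.1 CPM with DMSO and between 24.8 and 28.6 CPM with torin 1, and replicates 4 to 6 overlap between treatments.

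Kti12 footprints in control cells were 19.9, 22.6 and 25.8 CPM in the lowest, median and highest of 6 DMSO libraries, and 14.4, 16.7 and 21.3 CPM in those of 6 torin 1 libraries. They were lower with torin 1 in 6 of 6 same-numbered pairs, although the highest torin 1 library reached into the range of the DMSO libraries. The log2 change was -0.42 ± 0.12 with a 95% interval from -0.67 to -0.17 and an adjusted p of 0.0451, close to the threshold. With the replicate block the adjusted p was 0.00812, where 20.5% of all genes were called. Within replicates 1 and 2 the change was -0.30 (adjusted p = 0.648), within replicates 3 to 6 it was -0.48 (adjusted p = 0.0427), and with a term for this batch the adjusted p was 0.0126. With neighbouring libraries summed to 3 samples a group, it was -0.42 (adjusted p = 0.258). The unblocked call was lost in 9 of 12 fits that left out 1 library, with a change between -0.49 and -0.38 and an adjusted p of at most 0.0974. It was kept only without DMSO replicate 5, torin 1 replicate 1 or torin 1 replicate 2. When scaled by library totals the change was -0.33 (adjusted p = 0.0909), and this scaling moved the median of all genes from 0.01 to 0.10.

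In Ctu1 iKO cells, Kti12 footprints were 28.39, 23.19, 25.36, 20.95 and 20.36 CPM in DMSO replicates 1 to 5, and 15.2, 19.9 and 22.0 CPM in the lowest, median and highest of 6 torin 1 libraries. The groups overlapped. By replicate number 4 of 5 were lower with torin 1, but the numbers do not pair this comparison. The log2 change was -0.33 ± 0.14 with a 95% interval from -0.64 to -0.02 and an adjusted p of 0.202. The torin 1 change in footprints differed between genotypes by 0.10 ± 0.18, with a 95% interval from -0.27 to 0.47. Across all genes 0.639% were called for such a difference, and none of the 8 enzymes was, also not at an unadjusted p of 0.05 or in DESeq2. The translational efficiency of Kti12 changed by 0.12 ± 0.20 in control and 0.12 ± 0.21 in Ctu1 iKO cells, with 95% intervals from -0.31 to 0.55 and from -0.33 to 0.57. Of all genes 1.18% and 1.77% were called in these tests, 1.12% and 1.67% as lower. None of the 8 enzymes was, and only Elp5 in Ctu1 iKO cells passed an unadjusted p of 0.05, at 0.48 ± 0.19 with an adjusted p of 0.457.

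Elp6, a small subunit of the Elongator ring, had lower RNA values with torin 1 in each of 6 pairs. They were 16.7, 16.9 and 16.4 CPM with DMSO and 13.44, 14.98 and 15.60 CPM with torin 1 in control replicates 1 to 3. In Ctu1 iKO cells they were 15.3, 17.2 and 18.0 CPM with DMSO and 13.5, 14.5 and 14.8 CPM with torin 1. The treatments did not overlap in either genotype, and how many of all genes were so separated was not counted. The log2 changes of -0.18 ± 0.08 and -0.25 ± 0.10 were not called (adjusted p = 0.198 and 0.167). With the replicate block they had an adjusted p of 0.037 and 0.0289, and Elp6 and Kti12 were then 2 of 8 enzymes called, beside 43.7% of all genes in control and 35.1% in Ctu1 iKO cells. With neighbouring libraries summed Elp6 was not called in control cells (adjusted p = 0.511), and in Ctu1 iKO cells summing leaves 1 DMSO sample. Elp6 footprints changed by -0.23 ± 0.26 and 0.00 ± 0.22, with torin 1 libraries from 7.195 to 22.40 CPM.

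Urm1 RNA had higher values with torin 1 in each of 6 pairs of replicates 1 to 3, at 25.1, 25.3 and 23.8 CPM in control and 26.3, 29.2 and 26.4 CPM in Ctu1 iKO cells. These did not overlap the DMSO values in either genotype. Elp4 RNA, also uncalled, did not overlap between treatments in control cells but did in Ctu1 iKO cells. How many of all genes were without overlap in such groups of 3 was not counted. The changes of 0.14 ± 0.07 and 0.15 ± 0.09 did not pass the test, also with the replicate block. Urm1 footprints changed by 0.10 ± 0.16 and -0.09 ± 0.18.

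Ctu2 changed by -0.20 ± 0.12 in control and -0.16 ± 0.15 in Ctu1 iKO footprints and by -0.09 ± 0.08 and 0.00 ± 0.08 in RNA. Elp2, Elp3, Elp4 and Elp5 footprints changed by -0.08 to 0.15 in control cells. In Ctu1 iKO cells they changed by -0.08 to 0.25, and none was called in either. Median changes over the 8 enzymes were -0.01 in control footprints, -0.04 in control RNA, -0.04 in Ctu1 iKO footprints and -0.02 in Ctu1 iKO RNA, against 0.01, 0.00, 0.02 and 0.00 over all genes.

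**Figure D5:**
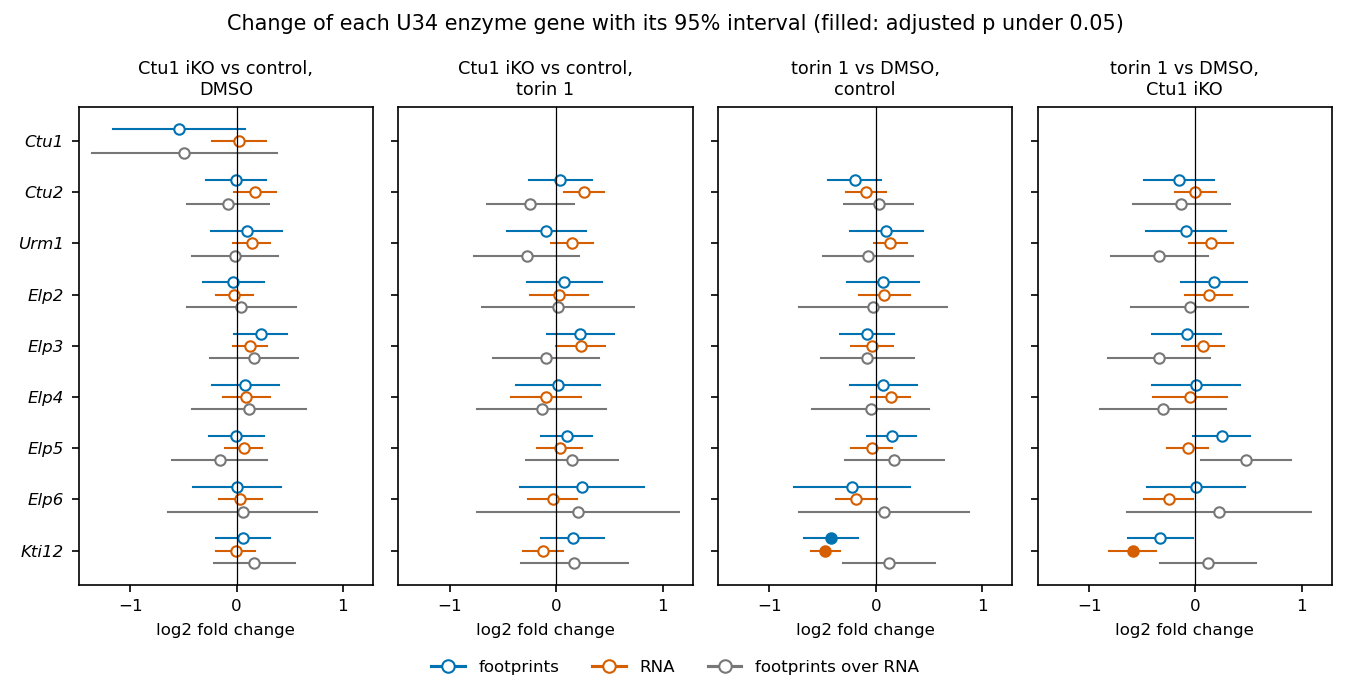
Log2 change of each U34 enzyme (points, with 95% intervals as bars) for Ctu1 iKO against control and for torin 1 against DMSO, in footprints, RNA and footprints over RNA (translational efficiency), with changes called without a replicate block filled. Only Kti12 with torin 1 is called so, at -0.42 in control footprints and at -0.47 and -0.59 in control and Ctu1 iKO RNA.

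Footprint replicates 1 and 2 differed from replicates 3 to 6 for several enzymes. Elp2 was lower in replicates 1 and 2 by 0.55 in control DMSO, 0.24 in Ctu1 iKO DMSO, 0.58 in control torin 1 and 0.61 in Ctu1 iKO torin 1 cells (log2), without overlap in all 4 groups. Elp3 was lower without overlap in 3 of 4 groups. Urm1 and Kti12 had higher means in replicates 1 and 2 in all 4 groups. With a term for this batch, or with the replicate block, no enzyme was called in footprints of Ctu1 iKO against control cells.

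Genes of the same pathway beyond the 9 were taken from a fixed list. Among those in the count tables were Nfs1, a cysteine desulfurase that supplies sulfur, Alkbh8, which completes the side chain, Trmt112, its activator, and Dph3, an electron donor to Elongator. None of these 4 was called in any comparison in the main edgeR fits, which have no replicate block and use RNA replicates 1 to 3. At an unadjusted p of 0.05 Alkbh8 and Nfs1 passed in 1 and 2 comparisons of these fits. DESeq2 called Alkbh8 in RNA of control cells with torin 1, beside 20.4% of all genes. Alkbh8 RNA changed with torin 1 by -0.21 ± 0.06 in control (adjusted p = 0.0727) and -0.22 ± 0.10 in Ctu1 iKO cells, which with the replicate block gave an adjusted p of 0.00365 and 0.0401, where 43.7% and 35.1% of all genes were called. With neighbouring libraries summed Alkbh8 was not called in control cells (adjusted p = 0.287), and in Ctu1 iKO cells summing leaves 1 DMSO sample. The enzymes of the mitochondrial U34 modification, Mto1, Gtpbp3 and Trmu, were all listed and none was called in the main edgeR fits. Gtpbp3 RNA differed between Ctu1 iKO and control DMSO cells by -0.32 ± 0.10 (adjusted p = 0.103, and 0.00856 with the replicate block), was called by DESeq2 and was the only gene of the 3 under an unadjusted p of 0.05. The block called 28.0% of all genes and DESeq2 15.1%. Summing neighbouring libraries leaves 1 Ctu1 iKO sample and cannot decide the Gtpbp3 call.

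Some other tRNA modification enzymes were called lower with torin 1. Of 68 such genes 64 were listed with DMSO and 62 with torin 1. With torin 1, 6 of 62 were called in control footprints and 8 in control RNA, all of them lower, beside 4.33% and 7.4% of all genes. In Ctu1 iKO cells 2 fell in footprints, and 7 fell and 1 rose in RNA, beside 4.52% of all genes called lower in each. The calls in control RNA and in footprints of both genotypes were lost with neighbouring libraries summed, and those in Ctu1 iKO RNA with all replicates. Leaving out 1 library at a time, the genes called lower were 3 (without DMSO replicate 2) to 12 (without torin 1 replicate 3) in control RNA and 0 (without DMSO replicate 1) to 10 (without torin 1 replicate 3) in Ctu1 iKO RNA. In footprints they were 3 to 6 in control and 1 to 4 in Ctu1 iKO cells. The 2 of 62 in Ctu1 iKO footprints are not above the share of all genes, and the other counts were not tested against it. Trmt61a, which methylates an adenine of tRNAs, fell in control RNA by 1.12 ± 0.12 and in control footprints by 1.09 ± 0.20 on the log2 scale, where the fitted change of Kti12 was -0.47 and -0.42. Trmt61a was not called with neighbouring libraries summed, at -1.09 in RNA (adjusted p = 0.0647) and -1.08 in footprints (adjusted p = 0.089). Between Ctu1 iKO and control DMSO cells 2 of 64 were called in RNA, with Pus3, a pseudouridine synthase, higher by 0.47 ± 0.09 and Mettl8 lower (-0.63 ± 0.11), and this count is not above the 5.12% of all genes. Both calls were lost in 5 of 6 fits that left out 1 library, all but the one without Ctu1 iKO replicate 3. With all replicates Pus3 was not called (adjusted p = 0.0962), and of the 64 genes 2 were called higher and 12 lower, beside 26.4% of all genes. The replicate block, which holds for RNA, gave 3 higher and 11 lower of 64 here, and for torin 1 against DMSO it gave 4 higher and 22 lower of 62 in control and 6 higher and 16 lower of 62 in Ctu1 iKO RNA. Of all genes the block called 28.0%, 43.7% and 35.1% in these comparisons.

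The genes whose footprint levels followed the mean of the 8 enzymes most closely across 23 libraries were Nol6 (Pearson's r = 0.845), Sec13 (0.837), Bop1 (0.834), Psmb4 (0.834) and Aar2 (0.82), of 8848 genes. With Spearman's coefficient only Sec13 and Nol6 were again among the 5 closest. The enzymes themselves followed their mean to very different degrees, from 0.794 for Elp2 and 0.725 for Elp3 to 0.0974 for Kti12 and -0.147 for Urm1. The libraries behind these coefficients differed in depth and between replicates 1 and 2 and the later replicates.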

How the data were processed

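Ribosome footprints and RNA were measured in 46 libraries of EPP2 iCas9 cells. The deposited values are raw read counts per gene and library, made by the authors, with 1 pair of tables for DMSO and 1 for torin 1. Per the labels and the processing notes, reads were trimmed with cutadapt 3.4 and aligned with STAR 2.5.3a to GRCm38 (mm10), and UMI-tools 1.1.1 was used. The study's methods text instead names a human build for the footprint alignment, and the gene names in the tables are those of mouse. Whether counts were collapsed by molecular identifiers is not given in the sources used here. All RNA counts are even numbers. Repeated symbols were left out.

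From these counts, each comparison was fitted over all genes with a mean of 10 or more counts in edgeR 4.0.16 (R 4.3.3), with TMM scaling within an assay, a quasi-likelihood test and Benjamini-Hochberg adjustment. TMM-scaled CPM are printed as levels. Footprint comparisons used all replicates. RNA and translational efficiency (an interaction of assay and condition) used replicates 1 to 3. DMSO and torin 1 tables were joined on the 9857 genes listed in both. Alternatives were DESeq2 1.42.0, library totals, a replicate block, a batch term, other replicate sets and leaving out each library. Within-batch fits, summing the libraries most alike in neighbouring numbers and leaving out footprint libraries of the control torin 1 comparison were added after seeing the data. The replicate numbers, from the labels, paired all RNA comparisons (r of deviations 0.492 to 0.844), control torin 1 footprints (0.455 to 0.648) and torin 1 footprints of the genotypes (0.328 to 0.559), but not the other footprint comparisons. Methods were tested on simulated data.

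Some genes of the pathway are not reported here. Guides were matched to GRCm38, and lengths and codons were taken from its annotation. The members and gene lists were chosen with earlier results of these data known. Named genes were the members, the called genes of the pathway lists, the furthest called other tRNA modification genes in each direction, and the 5 genes most like the members' mean.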

Additional observations from a re-analysis of the deposited data

Results flagged for a closer look

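Ctu2 footprints in control DMSO replicate 4 stood apart, at 66.3 CPM, from the other 5 libraries of that group, of which the nearest had 50.1 CPM. The gap took up 0.639 of the range of the 6 libraries. Among the 34 groups of libraries examined in this way, 1 such value was found, and chance gives it in about 1 in 20 groups.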

How the results depend on the processing

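Of 1596 values of single U34 enzymes under other settings, 1569 stayed on the same side of the threshold, 20 lost a call, 7 gained one and 0 reversed, and 181 uncalled values had another sign. The lost calls were all of Kti12, and they include a fit left with 1 Ctu1 iKO DMSO sample. The U34 enzymes called in footprints of control cells with torin 1 went from 1 to 0 with library totals, with replicates 1 to 3 and with replicates 1 and 2, and those called in RNA with torin 1 went from 1 to 0 in both genotypes with all replicates. With neighbouring libraries summed, the calls of Kti12 in control footprints and control RNA went from 1 to 0. No enzyme was then called in the footprint comparisons or in RNA of torin 1 cells. RNA comparisons with Ctu1 iKO DMSO cells were left with 1 sample of that group and cannot be judged in this way. Under the replicate block, which holds for the paired comparisons, the enzymes called rose to 1 (Ctu2) in RNA of DMSO cells, to 2 (Elp6 and Kti12) in RNA with torin 1 in either genotype and to 2 (Elp3 and Ctu2) in RNA of torin 1 cells. Another 1 was gained by DESeq2 (Ctu2, RNA of torin 1 cells) and 1 by all replicates (Urm1, RNA of DMSO cells). The block changed no other call of an enzyme.

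Counts of genes called over the whole tables moved more. For Ctu1 iKO against control in DMSO footprints (277) they were 700 with DESeq2, 737 with a batch term, 2 with replicates 1 to 3, 0 with replicates 1 and 2 and 184 with replicates 3 to 6. In DMSO RNA (518) they were 1530 with DESeq2, 2831 with the replicate block, 2677 with all replicates and 1547 with replicates 1 and 2. In DMSO translational efficiency (0) they were 21 with DESeq2, 1 with library totals, 1 with the block and 5 with all replicates. For torin 1 in control footprints (714) they were 2019 with the block, 1218 with a batch term, 138 with replicates 1 to 3 and 134 with replicates 1 and 2, in control RNA (1259) 1963 with DESeq2 and 4206 with the block, and in control translational efficiency (113) 227 with DESeq2. For torin 1 in Ctu1 iKO footprints (788) they were 1368 with a batch term, 178 with replicates 1 to 3 and 144 with replicates 1 and 2, in Ctu1 iKO RNA (794) 1609 with DESeq2, 3378 with the block and 0 with all replicates, and in translational efficiency (170) 316 with DESeq2 and 257 with all replicates. For Ctu1 iKO against control in torin 1 footprints (479) they were 842 with DESeq2, 1425 with the block, 914 with a batch term, 1 with replicates 1 to 3 and 0 with replicates 1 and 2, in RNA (126) 1092 with DESeq2, 3162 with the block, 0 with all replicates and 12 with replicates 1 and 2, and in translational efficiency (11) 102 with DESeq2, 3 with library totals, 23 with the block and 114 with all replicates. With neighbouring libraries summed, the genes called in footprints were 0 for Ctu1 iKO against control in DMSO and 40 with torin 1. For torin 1 against DMSO they were 200 in control and 213 in Ctu1 iKO footprints. In RNA they were 37 for torin 1 in control cells and 0 for Ctu1 iKO against control with torin 1. The other RNA comparisons were left with 1 Ctu1 iKO DMSO sample, and no count is given for them. The difference of torin 1 changes (63) gave 109 with DESeq2, 139 with the block and 2 with replicates 1 to 3. Settings with fewer replicates or summed libraries had fewer samples, and for the others the cause was not tested.

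Leaving out each library in turn gave ranges of genes called of 144 to 285 for DMSO footprints, 0 to 511 for DMSO RNA, 0 to 0 for DMSO translational efficiency, 559 to 737, 412 to 1233 and 63 to 104 for torin 1 in control footprints, RNA and translational efficiency, 527 to 921, 123 to 1123 and 105 to 162 for the same in Ctu1 iKO cells, 1 to 406 and 0 to 8 for RNA and translational efficiency of torin 1 cells, and 48 to 64 for the difference of changes. The enzymes called ranged from 0 to 1 for control footprints and for Ctu1 iKO RNA with torin 1, stayed at 1 for control RNA and at 0 in the other comparisons in which libraries were left out, which do not include footprints of Ctu1 iKO against control with torin 1. Depth limits Ctu1 most, with 16 to 143 footprint counts in a library, and no Ctu1 value with torin 1 was analysed here.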
